A study of Mus musculus with 8 samples.

Results

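The genes described here are those of mouse dorsal skin for which every probeset on the array gave the same direction of difference between embryonic day 16.5 (E16.5) and embryonic day 14.5 (E14.5). A probeset is a group of short probes that reads 1 stretch of a transcript, so a gene with several probesets is measured several times on each array. Values were deposited signals on a linear scale, taken as log2(signal + 16), and the mean of the 2 E14.5 arrays was subtracted from the mean of the 3 E16.5 arrays for each probeset that carries 1 gene symbol. Of 18193 genes, 9010 had 2 or more such probesets, and 3732 of these (41.4%) had differences of one sign throughout. These agreeing genes comprised 2751 that were higher at E16.5 and 981 that were lower. The other 5278 genes with 2 or more probesets gave differences of both signs, and 9183 genes had 1 probeset. The genes were thus selected on the measured E16.5 and E14.5 signals, so differences between these stages are given as a description. Counts that passed a test in this contrast are printed once beside those of all genes, and nothing is read from them.

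All 8 samples were dorsal skin of wild-type embryos on Affymetrix Mouse Genome 430 2.0 arrays. E14.5 had 2 arrays, and E16.5 and E18.5 had 3 each. Their labels give no treatment and no allele other than wild-type, and say nothing of separate animals, so a p-value here reflects only the variation among these arrays. Arrays of a stage were not all repeat runs of 1 sample, since the Y-linked gene Eif2s3y differed many-fold within each stage. Precision is limited by having 2 or 3 arrays per stage. Unless another is named, a gene's values are those of its brightest probeset on average.

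Over these days the embryonic epidermis changes from a thin covering with a transient outer layer, the periderm, into a stratified tissue. Basal keratinocytes, marked by Krt5 and Krt14, give rise to spinous cells with Krt1 and Krt10, and these become granular cells that make the cornified envelope, a sheet of crosslinked proteins such as involucrin and loricrin, and the lipids that seal the skin barrier. In the same period hair follicles are laid down, and the dermis deposits matrix over a growing sheet of muscle.

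The tissue label was checked against marker genes. All 6 markers of skin epithelium, all 5 of suprabasal epidermis and all 7 of dermal fibroblasts lay above background on each of the 8 arrays. Background was set for each array at the 95th percentile of 80 probesets for olfactory and vomeronasal receptors and came to 33.6 to 92.2 signal units. The E14.5 arrays stood apart in their controls. Their ratio of 3′ to 5′ signal was 6.49 and 6.91 for actin against 1.11 to 1.37 on the later arrays, and 2.96 and 3.03 for Gapdh against 0.692 to 0.869. The median signal was 63.4 and 60.8 at E14.5 and 120.1 to 152.6 later, the added bacterial bioB control read 5718 and 5283 against 585 to 662, and an 18S ribosomal RNA control read 10133 and 8729 against 117 to 211. Stage and these array properties cannot be told apart in differences from E14.5. Arrays of the agreeing genes correlated across genes with r of 0.948 within E14.5, 0.986 to 0.989 within E16.5, and 0.732 to 0.777 between these stages.

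Agreement became less frequent as a gene had more probesets, which the rule itself favours because more signs have to match. Of 4695 genes with 2 probesets 2602 agreed (55.4%), of 2366 with 3 probesets 777 agreed (32.8%), of 1093 with 4 probesets 247 agreed (22.6%), and of 856 with 5 or more 106 agreed (12.4%). Requiring every probeset used to lie above background on all 8 arrays left 4202 genes with 2 or more probesets, of which 1806 agreed (42.98%), so the share was similar among probesets with measured signal. The same count between E16.5 and E18.5 gave 4297 of the 9010 genes (47.7%).

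**Figure D1:**
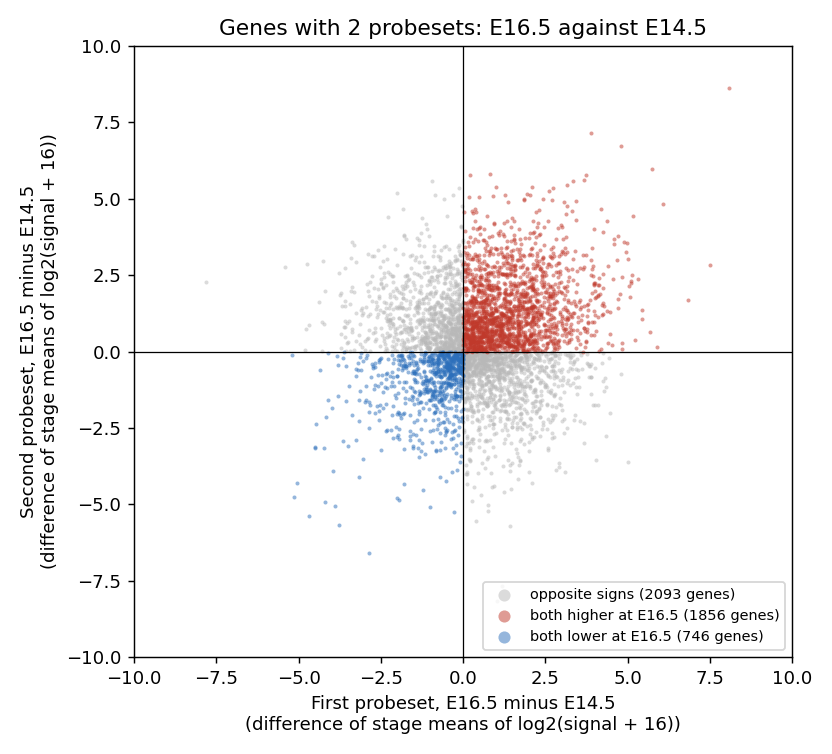
Each point is 1 of the 4695 genes with exactly 2 probesets, plotted by the E16.5 minus E14.5 difference of its first probeset (x axis) and its second probeset (y axis), both on the log2(signal + 16) scale. Both probesets were higher in 1856 genes (red) and lower in 746 genes (blue), while 2093 genes (grey) had probesets of opposite sign and are not among the agreeing genes.

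Agreement in sign did not mean agreement in size. Across the 3732 genes the median of the smallest probeset difference, taken as its size without sign, was 0.54, and the median range between a gene's probesets was 1.03. In 1888 genes (50.6%) that range was above 1, that is 2-fold. Nearest the limit of the rule, Abca13 was kept with a smallest difference of -0.001 and Atp5k with 0.001, while Prkra, with differences of -0.93 and 0.00, and Upp2, with -1.08 to 0.00, were left out by equally small values of the other sign. Every probeset was at least 2-fold higher at E16.5 in 866 genes and at least 2-fold lower in 171. The arrays of both stages were fully separated in every probeset of 1718 higher and 451 lower genes. Over all 18193 genes, of which those with 1 probeset need only that one to separate, the shares were 32.8% higher and 12.7% lower.

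By limma's test with Benjamini-Hochberg adjustment, 2565 of the agreeing genes passed an adjusted p of 0.05 for E16.5 against E14.5, 2004 higher and 561 lower. Among all 18193 genes, 57.9% passed, 37.1% higher and 20.8% lower, and since this contrast chose the genes nothing is read from their share. The higher genes made up 78.1% of those that passed as deposited, 51.2% after quantile normalization and 22.7% after median centring, likewise as a description. In the probeset that represents each gene, the arrays did not overlap in 2327 higher and 721 lower agreeing genes, beside 46.2% of all genes higher and 27.9% lower. The median difference was 1.19 in the higher and -0.93 in the lower agreeing genes, beside 0.29 over all genes.

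The balance of directions rested on the scale between arrays. As deposited, 73.7% of agreeing genes were higher at E16.5. After quantile normalization of the 8 arrays the rule gave 3589 genes of which 47.9% were higher, and after centring every array on its median it gave 4108 genes of which 22.4% were higher. The median difference of all genes moved from 0.29 to -0.06 and -0.66, shifts of -0.36 and -0.95. A total of 1861 of the 3732 genes (49.9%) kept agreement and direction under both other scalings, 921 of them higher and 940 lower. Differences from E14.5 below should be read against 0.29, the median of all genes, and a gene described as keeping its direction did so in every probeset under both other scalings.

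**Figure D2:**
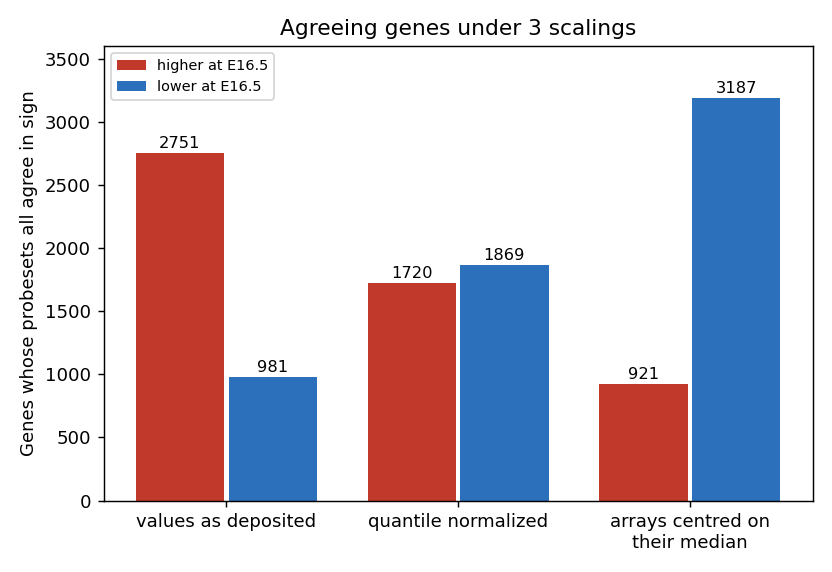
Bars count the genes whose probesets all agree between E16.5 and E14.5, split into higher (red) and lower (blue) at E16.5, for the values as deposited, after quantile normalization and after centring each array on its median. The split moved from 2751 higher and 981 lower to 1720 and 1869, and then to 921 and 3187.

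The 10 genes with the largest smallest difference upward were Lce1a1, Sod3, Rnf225, Cebpb, Il1f5, Nbeal2, Wnt7b, Csrp1, Sf3b4 and Serpina12, and all 10 kept their direction. Lce1a1, a late cornified envelope protein crosslinked into the cell wall of granular keratinocytes, read 3.51 and 1.82 at E14.5, both below background, and 4756, 10358 and 7886 at E16.5. That is at least 163-fold higher, with both probesets above 8 on the log2 scale (8.09 and 8.62). Other Lce genes have near-identical sequence, so the share of each in this signal is uncertain. Serpina12, a serine protease inhibitor, read 3.27 and 6.50 at E14.5 and 1671, 4104 and 3626 at E16.5, at least 65.1-fold higher. Sod3, the secreted superoxide dismutase, read 109 on E14.5 replicate 1 and 1.93 on replicate 2, and 1866, 2763 and 3041 at E16.5, so even the brighter E14.5 array lay far below all E16.5 arrays.

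Cebpb, a transcription factor of keratinocyte differentiation, read 186 and 149 at E14.5 and 4759, 5248 and 5023 at E16.5, a 30.1-fold difference. Il1f5, an antagonist cytokine of the interleukin-1 family made by keratinocytes, read 112 and 148 at E14.5 and 4335, 5685 and 5474 at E16.5, 39.8-fold apart. Wnt7b, an epidermal Wnt ligand, read 69.5 and 80.1 at E14.5 and 2134, 2313 and 2395 at E16.5, 30.5-fold apart. In all 3 genes the arrays of each stage lay close together. Rnf225 was 36.5-fold higher, Nbeal2 at least 17.4-fold, Csrp1, a LIM domain protein of the actin skeleton, 17.6-fold, and Sf3b4, a splicing factor subunit, 21.2-fold.

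**Figure D3:**
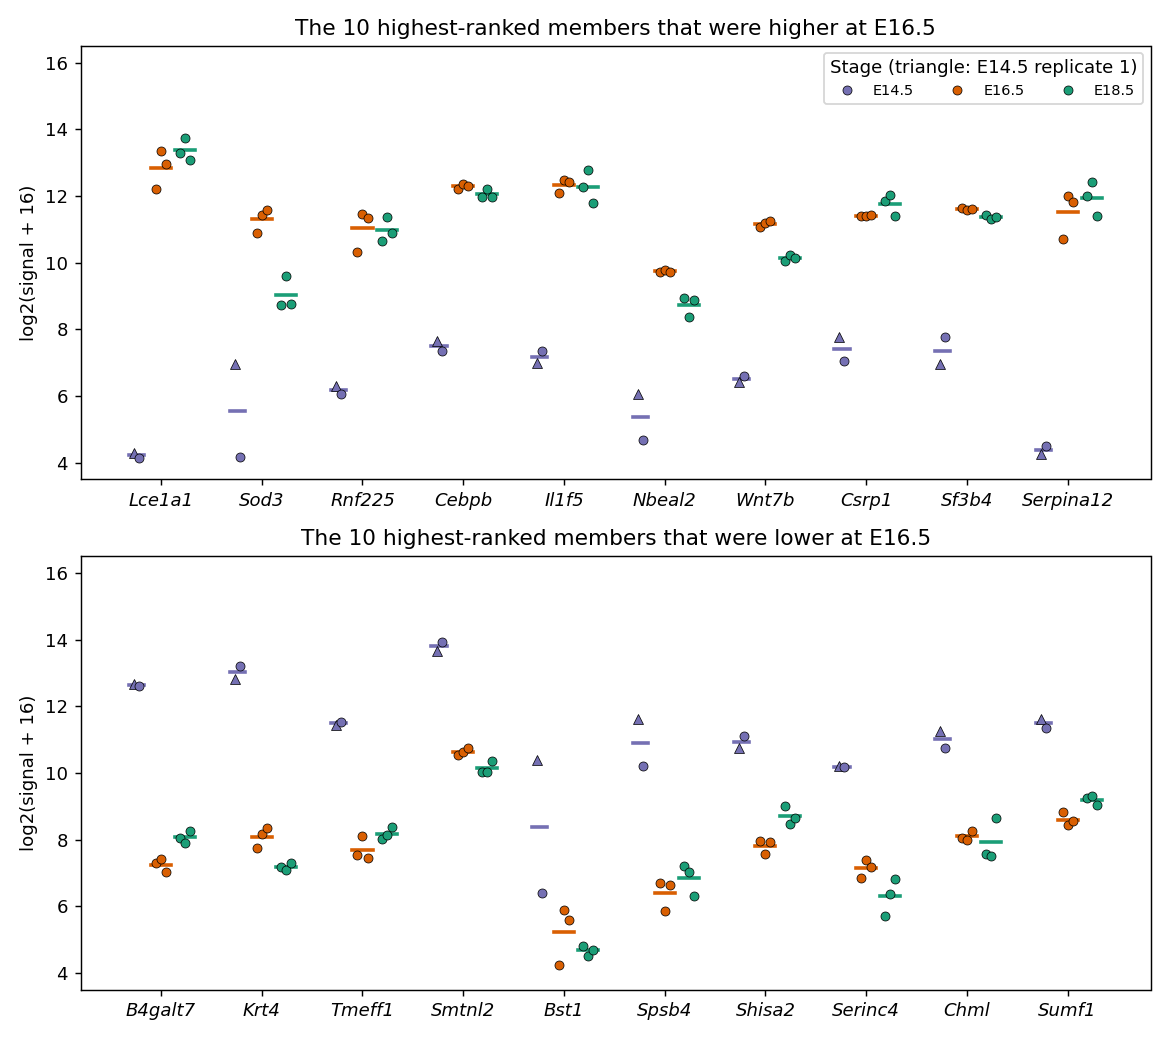
Signals of the 10 agreeing genes that ranked first in each direction by smallest probeset difference, as log2(signal + 16). There is 1 point per array, a bar for each stage mean and a triangle for E14.5 replicate 1. Only genes whose E14.5 and E16.5 arrays did not overlap were ranked, so the separation of these stages is a condition of the choice. Bst1 and Sod3 show the widest gaps between the E14.5 arrays.

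Genes of the cornified envelope and granular layer were mostly higher. Of 44 measured genes of this list 8 had 2 or more probesets and 7 agreed, with Ivl, Rptn, Tgm3, Casp14, Lce1a1 and Lce1f higher, Scel lower and a median difference of 3.05 beside 0.29 over all genes. All of these except Rptn kept their direction, although the difference of Scel was only -0.01 after quantile normalization (-1.42 after median centring). Ivl encodes involucrin, the scaffold to which other envelope proteins are joined. It read 164 and 284 at E14.5 and 10647, 12037 and 11332 at E16.5, a 52.6-fold difference, and its second probeset gave 171 and 158 against 2059, 2238 and 2612. Casp14, the caspase that cleaves filaggrin in the cornifying cell, read 574 and 808 at E14.5 and 4712, 5856 and 6024 at E16.5, 8.07-fold higher. Tgm3, a transglutaminase that crosslinks the envelope, read 642 and 797 against 1994, 2186 and 2053, 2.90-fold higher.

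Scel, which encodes sciellin, a further envelope precursor, was the exception in this list. It read 4198 and 5994 at E14.5 and 3197, 3801 and 3918 at E16.5, 1.38-fold lower, with a narrow gap between the stages, and its second probeset lay below background on every array. Loricrin, the main envelope protein, did not agree, since its 3 Lor probesets differed by -5.42 to 1.30. Outside the list, Ly6g6c, a small cell surface protein of the Ly6 family, read 654 and 1134 at E14.5 and 12279, 13553 and 13054 at E16.5, and its 3 probesets gave differences of 3.68 to 4.72. Hopx, a homeodomain protein without DNA binding that is found in differentiating keratinocytes, read 497 and 1106 against 10070, 9474 and 10954, 13.7-fold higher. Both were chosen as examples after their values were seen.

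Promoter sequences are shown for Ivl and Ly6g6c, as members with large upward differences in every probeset, and for Hbb-y, the embryonic beta-like globin that was among the most strongly lower. The 250 bases before each start site come from RefSeq on build GRCm38.p6 and are written 5′ to 3′ on the strand of the gene. Ivl lies on the minus strand with this stretch at chr3:92573736-92573985, Ly6g6c on the plus strand at chr17:35067075-35067324, and Hbb-y on the minus strand at chr7:103853208-103853457. Capitals mark every match, on either strand, to a TATA box spelled TATAAA, the CCAAT box, an AP-1 motif spelled TGANTCA, a grainyhead motif spelled AACCGGTT, a C/EBP motif spelled TTGCNNCAA, a GATA factor motif spelled GATAAG, and the CACCC box. No 2 of the marked matches overlap.
Ivl: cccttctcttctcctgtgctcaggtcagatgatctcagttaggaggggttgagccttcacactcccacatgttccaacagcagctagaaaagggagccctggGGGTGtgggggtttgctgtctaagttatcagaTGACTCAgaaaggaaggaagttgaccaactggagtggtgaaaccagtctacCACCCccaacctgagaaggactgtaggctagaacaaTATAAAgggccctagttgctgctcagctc
Ly6g6c: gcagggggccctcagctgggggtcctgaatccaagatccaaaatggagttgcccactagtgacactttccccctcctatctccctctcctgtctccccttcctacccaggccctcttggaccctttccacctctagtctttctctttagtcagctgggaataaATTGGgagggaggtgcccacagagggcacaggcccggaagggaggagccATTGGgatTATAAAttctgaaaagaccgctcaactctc
Hbb-y: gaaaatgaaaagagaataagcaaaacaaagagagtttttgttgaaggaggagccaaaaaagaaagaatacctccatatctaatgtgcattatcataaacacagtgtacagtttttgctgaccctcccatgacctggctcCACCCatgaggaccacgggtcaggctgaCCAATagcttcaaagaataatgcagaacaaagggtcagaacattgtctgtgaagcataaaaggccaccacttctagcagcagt

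The Ivl stretch holds a TATA box match 29 to 24 bases before the start, an AP-1 match 116 to 110 bases before it and 2 CACCC matches. The Ly6g6c stretch holds a TATA box match 30 to 25 bases before the start and 2 CCAAT matches, and the Hbb-y stretch 1 CCAAT match 83 to 79 bases and 1 CACCC match 111 to 107 bases before it. Over all 27025 promoters of the table, taken as windows of 300 bases, 14.2% held TATAAA, 7.93% the AP-1 letters, 37.9% CCAAT and 56.7% CACCC, so single matches of the last 2 are common. Promoters were found for 2219 of the 2751 higher and 778 of the 981 lower agreeing genes. TATAAA stood in 7.39% of the higher and 9.77% of the lower, beside 9.87% of all genes tested. The median GC content was 60.7% in the higher and 59% in the lower genes, beside 58.7% over all genes tested and 61.3% in genes whose probesets disagreed. The matches are descriptions of letters in a window.

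Among regulators and markers of the basal layer and of stratification, 7 of 17 genes with 2 or more probesets agreed, 5 higher and 2 lower, with a median of 1.43. Krt14, the keratin of the basal layer, had 3 agreeing probesets and read 4195 and 4963 at E14.5 and 13938, 15505 and 15386 at E16.5, 3.27-fold higher. Klf4, a transcription factor needed for the barrier, read 2789 and 4014 against 9085, 9597 and 8442, 2.70-fold higher. Both kept their direction, and for both the arrays of the 2 stages were well separated. Tfap2c, an AP-2 factor of surface ectoderm, ran the other way with 6660 and 8047 at E14.5 and 703, 737 and 660 at E16.5, 10.5-fold lower. Ripk4, a kinase of epidermal differentiation, read 6050 and 6732 against 1181, 1366 and 1271, 5.02-fold lower.

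Trp63, the master regulator of the epidermis, shows what the agreement rule removes. Its brightest probeset read 5926 and 7703 at E14.5 and 2698, 3049 and 2630 at E16.5, a difference of -1.27. A dimmer probeset read 8.22 and 1.91 at E14.5 and 661, 918 and 644 at E16.5, a difference of 5.16, so the gene has no single direction here. Of 18 epidermal stage genes 4 agreed (Krt14, Klf4 and Ivl higher, Krt8 lower), Trp63 and Lor disagreed and the other 12, including Krt5, Krt1, Krt10 and Flg, had 1 probeset.

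Rora, a nuclear receptor, and a few other genes were measured many times over. Of 353 agreeing genes with 4 or more probesets, 45 differed by at least 2-fold in every one, 40 higher and 5 lower. Rora agreed in 9 probesets, with differences of 1.13 to 6.43. Its brightest probeset read 139 and 127 at E14.5 and 5402, 6225 and 6836 at E16.5, whereas another read 683 and 865 against 2599, 2799 and 2740, so the size of the difference varied with the stretch of transcript that was read. Pcyt1a, the rate-limiting enzyme of phosphatidylcholine synthesis, agreed in 4 probesets at 2.73 to 3.41. Nf2, which encodes the tumour suppressor merlin, agreed in 4 at 2.18 to 3.12, Casz1, a zinc finger factor, in 4 at 1.68 to 4.03, and Igfbp4, an insulin-like growth factor binding protein, in 6 at 1.36 to 3.57.

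Barrier lipid genes were mostly higher at E16.5. Of 23 genes of this list with 2 or more probesets 13 agreed, 12 higher and 1 lower, with a median of 1.33, and 7 of the 12 kept their direction. Smpd1, the acid sphingomyelinase that releases ceramide in the outer layers, read 863 and 900 at E14.5 and 5737, 6658 and 7186 at E16.5, 7.37-fold higher. Smpd3, a neutral sphingomyelinase, read 128 and 29.4 against 806, 1342 and 1120, at least 13.9-fold higher, with E14.5 replicate 2 below background. Far2, a fatty acyl-CoA reductase of wax synthesis, read 212 and 359 against 633, 862 and 913, 2.87-fold higher. Elovl4, which makes the very long fatty acids of barrier ceramides, was the lower gene, at 10530 and 15971 against 5629, 6063 and 5316, 2.29-fold lower, and it lost agreement under quantile normalization.

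All 3 agreeing genes among epidermal proteases and inhibitors, of 7 with 2 or more probesets, were higher and kept their direction. Capn1, the large subunit of a calcium-dependent protease, read 240 and 208 at E14.5 and 2068, 2016 and 2295 at E16.5, 9.51-fold higher. Serpinb12, an intracellular protease inhibitor, read 402 and 671 against 8979, 8967 and 7819, 16.5-fold higher. Of 10 desmosome and junction genes with 2 or more probesets 3 agreed. Pkp3, a plakophilin of the suprabasal desmosome, read 364 and 486 against 3499, 3795 and 3584, 8.63-fold higher. Dsc1, a desmosomal cadherin, was 1.56-fold higher as deposited but its difference was -0.31 after median centring. Pkp2, the plakophilin of basal and simple epithelia, read 988 and 133 at E14.5 and 34.3, 37.2 and 43.0 at E16.5, and thus differed between the E14.5 arrays too.

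Hair follicle and patterning genes gave 9 agreeing genes of 20 with 2 or more probesets, 7 higher and 2 lower, with a median of 0.94 that became -0.01 after median centring. Gli2, a transcription factor of the hedgehog pathway, read 439 and 587 at E14.5 and 2310, 2621 and 2812 at E16.5, 5.07-fold higher. Wnt4, a Wnt ligand, read 217 and 282 against 2187, 2383 and 2280, 9.23-fold higher. Foxn1, a factor of hair and epidermal differentiation, read 53.5 and 2.14 against 308, 289 and 310, at least 6.10-fold higher. These 3 kept their direction. Shh, the hedgehog ligand of the follicle bud, was 1.88-fold higher as deposited, but the difference was -0.06 after median centring.

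The 2 lower follicle genes were a receptor and a ligand. Edar, the ectodysplasin receptor that marks early placodes, read 973 and 1365 at E14.5 and 280, 383 and 395 at E16.5, 3.30-fold lower. Its second probeset lay below background on every array, with a difference of -0.14. Wnt5a, a ligand made in the mesenchyme, read 1794 and 1562 against 724, 790 and 716, 2.25-fold lower. Tcf7l1, a repressor downstream of Wnt signalling in skin progenitors that was chosen after its values were seen, read 267 and 297 against 1336, 1502 and 1347, 4.95-fold higher.

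In the dermis all 16 agreeing matrix and fibroblast genes, of 37 with 2 or more probesets, were higher, with a median of 1.03, and 6 of the 16 kept their direction. Eln, the elastin precursor, read 501 and 511 at E14.5 and 3146, 2495 and 2837 at E16.5, 5.56-fold higher. Col5a1, a chain of the collagen that sets fibril diameter, read 3089 and 3154 against 12428, 10710 and 10837, 3.62-fold higher, and its 3 probesets gave 1.46 to 2.35. Fn1, fibronectin, read 5006 and 2701 against 11007, 9490 and 10015, 2.76-fold higher. Pdgfrb, a growth factor receptor of mesenchyme and pericytes, read 604 and 567 against 2015, 1240 and 1453, 2.62-fold higher. Loxl4, which crosslinks collagen and elastin, was 4.46-fold higher. Signals of whole skin cannot tell more cells of a type from more RNA per cell.

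Genes of blood vessels, muscle, fat, pigment and immune cells also held agreeing members. Of 16 endothelial and pericyte genes with 2 or more probesets 10 agreed, 9 of them higher, with 4 of the 9 keeping their direction. Cdh5, the cadherin of endothelial junctions, read 58.8 and 59.5 at E14.5 and 936, 1013 and 1165 at E16.5, 17.5-fold higher. Eng, an endothelial co-receptor for transforming growth factor beta, read 127 and 110 against 1132, 1138 and 1369, 10.2-fold higher. Flt4, the receptor of lymphatic endothelium, was 1.57-fold lower. The 3 endothelial markers together read 294 and 438 at E14.5 against 3320 to 4043.

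All 10 agreeing skeletal muscle genes, of 15, were higher, with a median of 2.08, and 3 of them kept their direction. Ckm, muscle creatine kinase, read 52.5 and 89.5 at E14.5 and 8445, 9777 and 10632 at E16.5, 140-fold higher in 1 probeset, while its other probeset differed by 1.68. Ttn, the giant sarcomere protein, agreed in 6 probesets at 0.75 to 4.16 and read 334 and 736 against 8621, 9513 and 9334. The 5 defining markers of skeletal muscle lay above background on all arrays and summed to 5197 and 10179 on the E14.5 arrays. The sums were 44383 to 48058 on the E16.5 arrays and 57284 to 84024 on the E18.5 arrays. Of these markers Myh3, Myh8, Acta1 and Ttn read higher on every later array than on both E14.5 arrays. Myog ran the other way, with 1715 and 3043 on the E14.5 arrays. It then read 1678, 1465 and 1440 on the E16.5 arrays, and last 683, 368 and 927. The summed muscle signal was thus higher at the later stages along with skin genes, without a common direction of all markers. The part of muscle in the other differences was not tested.

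All 9 agreeing adipocyte genes, of 15, were higher, and 2 kept their direction. Acaca, the first enzyme of fatty acid synthesis, read 389 and 297 against 1268, 1212 and 1229, 3.64-fold higher, and Dgat2, which makes triglyceride and is also in the barrier list, read 2540 and 2424 against 8162, 9658 and 9606, 3.67-fold higher. In melanocytes 4 of 5 agreeing genes were higher. Kit, the receptor for stem cell factor on melanoblasts and mast cells, read 276 and 261 against 1895, 1986 and 1947, 7.25-fold higher. Mitf, the melanocyte transcription factor, was the lower one at 2571 and 3668 against 722, 720 and 728, 4.25-fold lower. Among 8 agreeing macrophage and mast cell genes 7 were higher, and 2 of the 7 kept their direction. The list median of 0.89 became -0.02 after quantile normalization and -0.06 after median centring. Hdc, which makes histamine, read 1969 and 2136 against 5904, 6465 and 6276, 3.03-fold higher, and Lyz1 was 1.97-fold lower. The 3 macrophage markers, none of them an agreeing gene, summed to 13300 and 9942 at E14.5 against 3355 to 3696 at E16.5. Most of that gap was C1qb, at 7100 and 6628 against 234 to 346. Cd68 read 205 and 197 against 207 to 250, and Csf1r 5995 and 3117 against 2863 to 3142. The markers thus had no common direction, and the part of cell number was not tested.

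The first 10 downward, ranked under the same filters and so without liver and blood genes such as Hbb-y, were B4galt7, Krt4, Tmeff1, Smtnl2, Bst1, Spsb4, Shisa2, Serinc4, Chml and Sumf1. All 10 kept their direction. B4galt7, which builds the linker of proteoglycan chains, read 6460 and 6242 at E14.5 and 141, 154 and 116 at E16.5, 46.7-fold lower. Krt4, a keratin of moist stratified epithelia, read 7236 and 9428 against 199, 271 and 307, 32.4-fold lower, and both of its probesets differed by more than 4 (-4.19 and -4.93). Smtnl2 read 12815 and 15695 against 1484, 1550 and 1706, 8.99-fold lower. In these genes the E14.5 arrays lay close together.

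Shisa2, which retains Wnt and fibroblast growth factor receptors inside the cell, read 1698 and 2196 at E14.5 and 234, 175 and 226 at E16.5, 9.19-fold lower. Tmeff1 was 14.9-fold lower, Serinc4 9.17-fold, Chml 7.95-fold and Sumf1, which activates sulfatases, 7.66-fold. Spsb4 read 3114 on E14.5 replicate 1 and 1161 on replicate 2, and Bst1, a cell surface enzyme also known as CD157, read 1316 and 68.7. For Bst1 the difference from E16.5 therefore rests mainly on replicate 1. Replicate 2 also lay above all 3 E16.5 arrays (2.97, 43.5 and 31.8), as the ranking required.

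The list of periderm and simple epithelium was evenly split, with a median of 0.01. Of its 4 agreeing genes, Krt8 and Cldn3 were lower and Epcam and Spint2 higher. Cldn3, a tight junction protein, agreed in 4 probesets. The one brightest at E14.5 read 153 and 81.0, above background, and 6.67 to 7.76 at E16.5, below background. Krt8, a keratin of simple epithelia and periderm, had 3 agreeing probesets and read 6892 on E14.5 replicate 1, 1745 on replicate 2, and 356, 384 and 293 at E16.5. Both E14.5 arrays thus lay above every E16.5 array. Liver cells also express Krt8, 6 and 2 of the 6 hepatocyte markers lay above background on E14.5 replicates 1 and 2, and their part in the Krt8 difference was not tested. Further lower genes were chosen after their values were seen. Upk1b, a uroplakin of umbrella cells, agreed in 4 probesets and read 2205 and 2912 against 191, 231 and 137, 13.9-fold lower. Slc2a1, the glucose transporter GLUT1, read 19322 and 19645 against 3386, 3164 and 3306, 5.93-fold lower in its brightest probeset, and Slc16a1, a lactate transporter, 5707 and 4585 against 1761, 1546 and 1524. Cdkn1b, the cell cycle inhibitor p27, was 5.98-fold lower, and Zic1, a factor of the early dorsal mesoderm, read 6354 and 6545 against 1340, 1250 and 1184, 5.13-fold lower.

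The E14.5 arrays differed from each other in a set of liver transcripts. Of 12 genes of the hepatocyte list with 2 or more probesets 10 agreed, 9 of them lower at E16.5, with a median of -3.80. Afp, the fetal serum protein, read 29656 on E14.5 replicate 1, 132 on replicate 2 and 7.53 to 14.3 at E16.5. Ttr, the thyroid hormone carrier, read 18987 and 29.9 at E14.5 and 0.94 to 14.9 at E16.5, and Apoa1, the main protein of high density lipoprotein, 16101 and 47.4 against at most 36.7. On replicate 2 Ttr lay below that array's background of 45.7 and Apoa1 barely above it. Afp on replicate 2 was clearly above its E16.5 arrays.

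Over the whole hepatocyte list of 38 measured genes the signals summed to 128216 on E14.5 replicate 1 and 1146 on replicate 2. The E16.5 arrays held 1243 to 1460 and the E18.5 arrays 2329 to 2925. Of the 6 defining hepatocyte markers, 6 lay above background on replicate 1, 2 on replicate 2, 0 or 1 on the E16.5 arrays and 1 on each E18.5 array. Among all agreeing genes, 228 were at least 2-fold brighter on replicate 1 than on replicate 2, 101 of them lower at E16.5, and 146 were at least 2-fold brighter on replicate 2. Prap1, read at 14390 and 18.8, and Apoa4, at 17486 and 30.8, were the most unequal with Ttr. In the other direction Eif2s3y, a gene of the Y chromosome, read 365 and 3241 at E14.5, then 1.76, 835 and 15.8, and last 907, 9.82 and 1906 on the E18.5 arrays, so it varied within every stage. In 710 agreeing genes the E14.5 arrays differed by more than the stage means did.

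**Figure D4:**
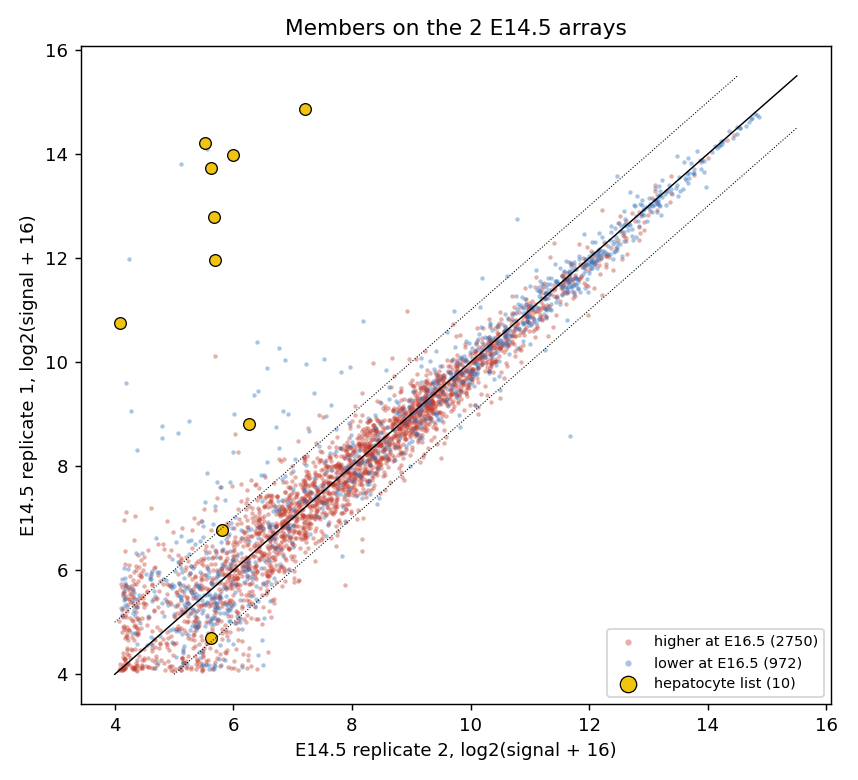
Each point is 1 agreeing gene, plotted by its log2(signal + 16) on E14.5 replicate 2 (x axis) and replicate 1 (y axis); the solid line marks equal signal and dotted lines a 2-fold difference. Most genes lie along the line, while 8 of the 10 agreeing hepatocyte genes (yellow) lie above the 2-fold line.

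Leaving replicate 1 out, the rule gave 3634 genes, of which 3201 were among the 3732 and 3176 had the same direction. Leaving replicate 2 out gave 3802 genes, of which 3279 were shared and 3260 had the same direction. Leaving out the genes of the liver and blood lists changed the total to 3717.

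Embryonic globins were lower at E16.5 on both E14.5 arrays. Hbb-y read 15884 and 11372 at E14.5 and 1035, 139 and 344 at E16.5, 36.6-fold lower, and its 3 probesets gave -4.98 to -5.11. Hbb-bh1, another embryonic globin, read 222 and 113 against 96.2, 8.28 and 27.9, at least 2.85-fold lower. Ank1 and Sptb, of the red cell membrane skeleton, were higher, Sptb by at least 3.42-fold. The erythroid list summed to 34466 and 31239 on the E14.5 arrays, 16318 to 26216 on the E16.5 arrays and 8507 to 11694 on the E18.5 arrays. The E14.5 sums include the Hbb-y signals of 15884 and 11372. Of the other erythroid markers above background, Alas2 read 309 and 316 at E14.5 and 4156 to 6794 at E16.5. Slc4a1 read 1539 and 1570 against 450 to 1194. The median difference over the 26 measured genes of the list was 0.17, beside 0.29 over all genes, so the sums show no common direction.

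Proliferation genes were split nearly evenly only as deposited. Of 46 proliferation genes with 2 or more probesets 15 agreed, 8 higher and 7 lower, with a median of 0.05, below the 0.29 of all genes. Under both other scalings 1 of the 8 and 6 of the 7 kept their direction. The median was -0.27 after quantile normalization and -0.91 after median centring, beside -0.06 and -0.66 over all genes. Prc1, which bundles the midzone of the spindle, read 5099 and 5455 at E14.5 and 2076, 2028 and 2283 at E16.5, 2.48-fold lower. Mybl2, a cell cycle transcription factor, was 2.21-fold higher as deposited, but its difference was 0.09 after quantile normalization and after median centring. Cdk4 was 1.71-fold higher as deposited, with a difference of -0.18 after median centring. Of 21 ribosomal protein genes 9 agreed, 2 higher and 7 lower, with a median of -0.41. Rpl27a read 26082 and 27223 against 863, 950 and 900, 29.5-fold lower, in contrast to Rps20 at 1.99-fold lower and Rps14 at 1.24-fold higher, a difference that was -0.64 after median centring. Ribosomal protein genes have many near-identical pseudogene copies, so their single values are uncertain.

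Fetal growth, neural and cartilage lists held few agreeing genes. Igf2 was 1.49-fold higher as deposited and -0.38 on the log2 scale after median centring. Meg3, a long noncoding RNA, agreed in 11 probesets, the largest number of any agreeing gene, at 0.20 to 4.68, and lost agreement under both other scalings. Trim71, a target of the let-7 microRNA, was at least 3.32-fold lower, with 308 on E14.5 replicate 1 and 93.6 on replicate 2. Map2, a microtubule protein of neurons, agreed in 4 probesets and was 5.05-fold higher. Of 9 agreeing neural genes 6 were higher, and of 5 agreeing cartilage and skeletal genes 3 were higher. Under both other scalings 1 of the 6 and 0 of the 3 kept their direction.

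**Figure D5:**
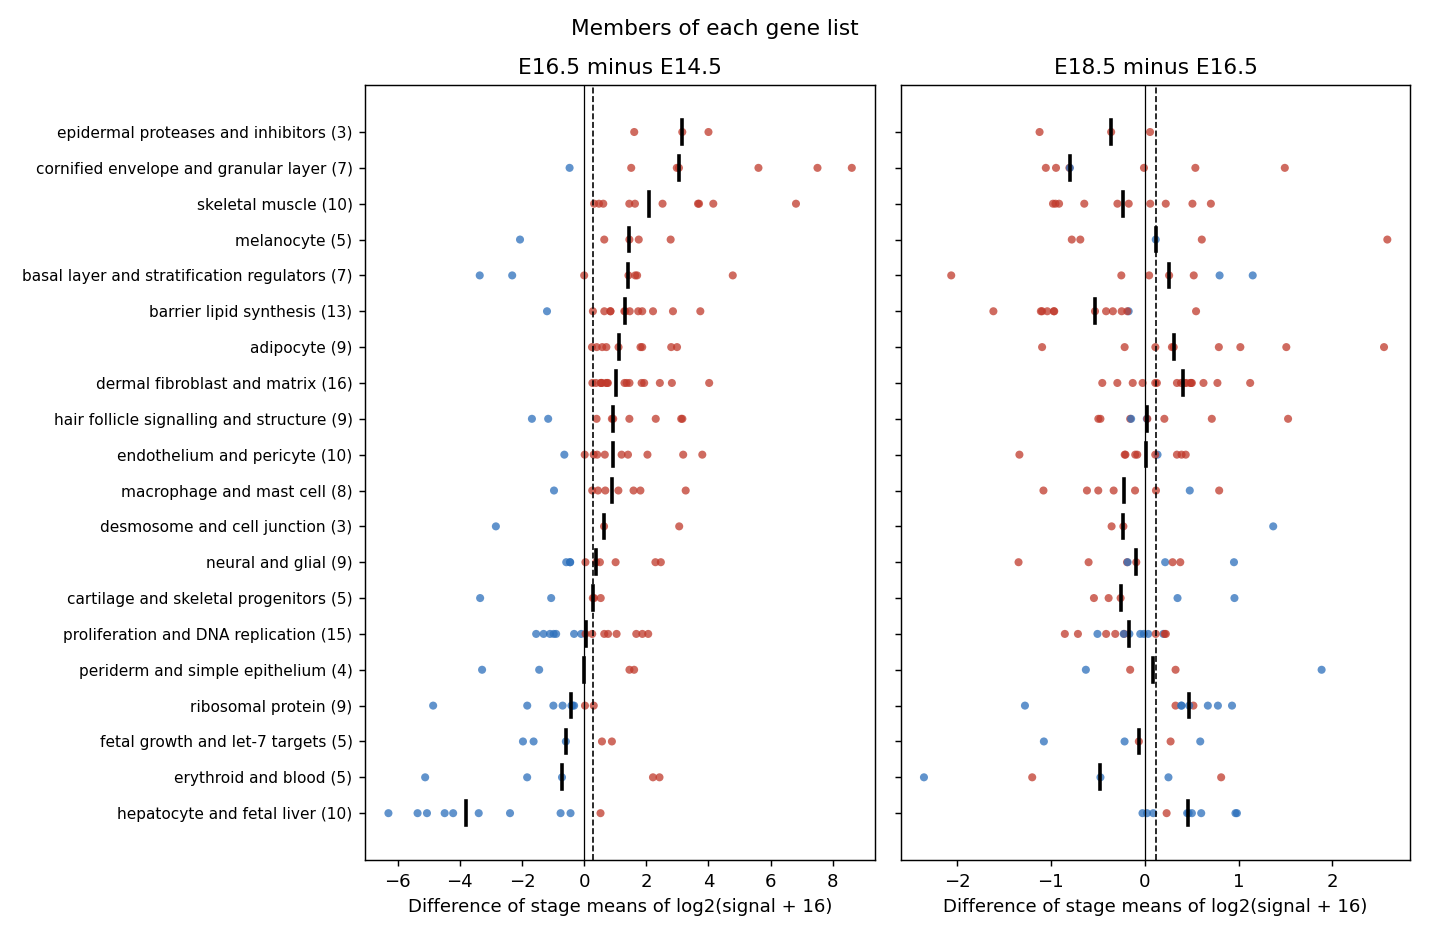
Each point is 1 agreeing gene of a list (number in brackets), red if higher and blue if lower at E16.5, plotted by its E16.5 minus E14.5 difference (left) and its E18.5 minus E16.5 difference (right) on the log2(signal + 16) scale. Black ticks are list medians and the dashed line is the median of all genes, 0.29 on the left and 0.12 on the right. Protease and cornified envelope genes have the highest medians on the left (3.16 and 3.05) and hepatocyte genes the lowest (-3.80).

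The later interval was not used to choose the genes and could be tested, although it shares the E16.5 arrays with the interval that chose them, so the intervals are not independent. By limma 533 of the 3732 agreeing genes (14.3%) changed between E16.5 and E18.5 at an adjusted p of 0.05, beside 12.9% of all genes, of which 7.28% were higher and 5.58% lower at E18.5. Among the agreeing genes 234 rose (6.27%) and 299 fell (8.01%). Which direction was more frequent turned under other settings, with 180 rising and 142 falling for the mean of a gene's probesets, 182 and 165 for their median, 182 and 167 without a variance trend, and 89 and 83 with a 2-fold minimum. The corresponding shares were 16.1% of the genes whose probesets disagreed and 10.4% of those with 1 probeset. Leaving out E16.5 replicate 1, 2 or 3 lowered the 533 to 216, 219 and 149, and the share of all genes called to 5.50%, 5.55% and 4.36%.

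Among called agreeing genes whose E16.5 and E18.5 arrays did not overlap, the largest rises at E18.5 were those of Csn2, Csn3, Tyrp1, Gpd1 and Arg2. Csn2, the milk protein beta-casein, read 2.16 to 35.6 at E16.5 and 2158, 10573 and 200 at E18.5, at least 39.3-fold higher (adjusted p = 0.00931), with wide spread among the E18.5 arrays. Tyrp1, an enzyme of melanin synthesis, read 92.1, 136 and 144 at E16.5 and 1125, 695 and 684 at E18.5, 6.67-fold higher (adjusted p = 0.000777). Gpd1, which makes glycerol phosphate for triglyceride, read 83.7 to 91.0 at E16.5 and 331, 1043 and 571 at E18.5, 6.73-fold higher (adjusted p = 0.00314). Arg2, the mitochondrial arginase, was 5.67-fold higher (adjusted p = 0.00219). The separation of the E18.5 from the E16.5 arrays in these genes was a condition of the choice. Csn3, kappa-casein, read 230, 1265 and 51.5 at E18.5 and 2.95 to 11.4 at E16.5 (adjusted p = 0.0216). The value of 51.5, on E18.5 replicate 3, lay below that array's background of 81.0. The Csn3 call was lost without any 1 of the E16.5 arrays (0.0774, 0.0629 and 0.0732) or without E18.5 replicate 1 (0.0574). Its other probeset read 1.01 to 3.97 over all arrays, below background, with an E18.5 minus E16.5 difference of 0.10.

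The largest falls, chosen under the same condition, were those of Saa1, Upk3b, Mdfi, Ctse and Gng4. Saa1, an acute phase protein, read 64.5 and 36.5 at E14.5, 772, 536 and 647 at E16.5, and 15.3, 22.7 and 65.9 at E18.5, at least 8.32-fold lower than at E16.5 (adjusted p = 0.000526). Mdfi, an inhibitor of myogenic factors, read 76.0 and 111, then 697, 547 and 565, then 79.1, 85.8 and 108, at least 6.33-fold lower than at E16.5 (adjusted p = 0.000375). Both were thus high at E16.5 alone among the 3 stages. Gng4, a G protein subunit, was 4.93-fold lower (adjusted p = 0.000845) and Upk3b, a uroplakin, at least 5.22-fold lower (adjusted p = 0.000564). Ctse, the protease cathepsin E, fell 5.37-fold in its brighter probeset (adjusted p = 0.0121), but its other probeset went from 62.5 to 84.1 on the E16.5 arrays up to 194 to 520, the opposite direction.

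Among the envelope and barrier genes several fell between E16.5 and E18.5. Of the 7 agreeing envelope genes 1 rose and 3 fell. The rise, of Lce1f, was lost without any 1 array other than E16.5 replicate 2 (adjusted p up to 0.132), and the fall of Scel without E16.5 replicate 2 or 3 (0.071 and 0.0833). Ivl read 4336, 5922 and 6299 at E18.5, a fall of 2.08-fold from E16.5 (adjusted p = 0.00834), and still lay far above both E14.5 arrays. Tgm3 read 1025, 1380 and 867 and fell 1.94-fold (adjusted p = 0.00742). Casp14 read 5639, 7076 and 4098, within the range of its E16.5 arrays or near it (adjusted p = 0.984), and Lce1a1 8638 to 13721 (adjusted p = 0.198). Of the 13 agreeing barrier lipid genes 0 rose and 6 fell, and 5 or 6 fell without any 1 array. Smpd1 fell 1.96-fold to 2662 to 3969 (adjusted p = 0.00402), Far2 3.19-fold to 194 to 342 (adjusted p = 0.0048) and Dgat2 2.14-fold to 3480 to 4903 (adjusted p = 0.00149). These calls of Tgm3 and Smpd1 were lost when all probesets of a gene were averaged.

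Other genes that were high at E16.5 fell as well. Wnt7b read 1045, 1182 and 1108 at E18.5, 2.05-fold below E16.5 (adjusted p = 0.00144), Capn1 859, 1004 and 1052, 2.19-fold below (adjusted p = 0.00121), and Cdh5 529, 283 and 427, 2.59-fold below (adjusted p = 0.00559). Map2 was 2.57-fold lower (adjusted p = 0.00553). Rora fell 1.83-fold (adjusted p = 0.009, and 0.0525 without E16.5 replicate 3), and Ly6g6c 2.16-fold (adjusted p = 0.0113, and 0.0506 without E16.5 replicate 3). For each of these the E18.5 signals remained above both E14.5 arrays.

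Counting only the agreeing genes of each list, matrix and ribosomal protein genes had the most rises, 8 each. Over all measured genes 26 of 39 ribosomal protein, 19 of 50 follicle, 16 of 28 adipocyte and 15 of 48 matrix genes rose. Of the 16 agreeing matrix genes 8 rose and 0 fell. The number that rose was 5 without either E14.5 array, 2, 1 and 3 without E16.5 replicate 1, 2 or 3, and 5, 6 and 4 without E18.5 replicate 1, 2 or 3. Fbln5, a fibulin of elastic fibres, read 719 and 570 at E14.5, 889, 929 and 1057 at E16.5 and 2146, 2156 and 2004 at E18.5, a rise of 2.20-fold (adjusted p = 0.00107) that was lost when its probesets were averaged. The second Fbln5 probeset lay below background on every array, and the gene's earlier difference was -0.39 after median centring. Shh read 514 and 697, then 946, 1209 and 1248, then 4226, 2872 and 2895, a rise of 2.91-fold (adjusted p = 0.00144). Krt17, a keratin of follicle and periderm, read 323 and 344, then 1697, 2107 and 1865, then 7405, 4825 and 4364, a rise of 2.86-fold (adjusted p = 0.00141), though its second probeset was dim on all arrays. Lpl, the lipase that feeds fat cells, read 2110 and 1680, then 3810, 2346 and 2540, then 6381, 8480 and 9767, a rise of 2.86-fold (adjusted p = 0.00229), and its earlier difference was -0.37 after median centring.

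Of the genes that were lower at E16.5, Tfap2c rose 2.25-fold to 1491, 1781 and 1462 at E18.5 (adjusted p = 0.000808), which left it below E14.5. B4galt7 rose 1.86-fold to 225 to 293 (adjusted p = 0.0116, and 0.0593 without E16.5 replicate 3). Krt4 fell a further 1.97-fold to 119 to 143 (adjusted p = 0.0148, but 0.0624 and 0.0747 without E16.5 replicate 2 or 3). Mitf, Edar, Wnt5a and Slc2a1 did not pass the test, with differences of 0.12, -0.14, 0.02 and 0.46. Of the 9 agreeing ribosomal protein genes 8 rose and 1 fell, the fall being Rpl27a, at 265, 379 and 477 (adjusted p = 0.00277). The number that rose was 4, 3 and 3 without E16.5 replicate 1, 2 or 3, and 6 or 7 without another array. The median difference of these 9 genes was 0.47 as deposited, 0.11 after quantile normalization and 0.36 after median centring. The call of Rps14 was lost after quantile normalization (adjusted p = 0.414). Rps20 rose 1.91-fold (adjusted p = 0.00125), although its difference turned to -0.12 when probesets that can match several transcripts were left out. The calls of Rpl27a and Rps20 were lost when their probesets were averaged, and that of Tfap2c when the median of its probesets was used.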

How the data were processed

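Dorsal skin of wild-type embryos was measured on 8 arrays, grouped by the age label. For each of 45101 probesets the authors deposited a linear signal intensity, made with Affymetrix Expression Console 1.1 and PLIER 2.0 per the submitters' processing notes. The background correction used, and any normalization across arrays, were not given in the sources used here. Per the labels' protocols the targets were amplified from random hexamers and labelled by a whole-transcript method, whereas the array is of the 3′ type.

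Probesets with several symbols (932), with no symbol (9211) and controls were left out, leaving 34945. Signals were taken as log2(signal + 16) with no further normalization. A gene was kept where all its probesets, 2 or more, had stage mean differences of one sign. For values and tests the probeset with the highest mean stood for the gene. limma 3.58.1 in R 4.3.3 fitted 1 mean per stage to all 8 arrays of 18193 genes (lmFit, eBayes with a variance trend), with Benjamini-Hochberg adjustment over all genes and a threshold of 0.05. All adjusted p-values are from limma. A fold is the ratio of geometric mean signals; where the dimmer stage had an array at or below background the fold is against the higher of background and signal, and is written "at least".

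The genes and the 22 gene lists were chosen with earlier results of these data known, so no count here is independent evidence of a direction. Of the listed symbols 67 were not found. Named genes were the 10 with the largest smallest probeset difference in each direction, up to 2 list members per direction ranked the same way, the 5 largest called rises and falls at E18.5, those nearest the limit of the rule, 18 stage genes and the most unequal at E14.5; further examples, taken after their values were seen, were Casp14, Lce1f, Tgm3, Hopx, Ly6g6c, Far2, Fn1, Col5a1, Pdgfrb, Pcyt1a, Rora, Slc2a1, Cdkn1b, Upk1b, Shh, Wnt4, Afp, Nf2, Casz1, Igfbp4, Tcf7l1, Zic1, Ttn, Lpl, Slc16a1, Eng and Fbln5. Promoters came from a RefSeq table.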

Additional observations from a re-analysis of the deposited data

How the results depend on the processing

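No paired analysis was possible because replicate numbers follow accession order and pair no arrays. Leaving out 1 array at a time gave 3634 to 3802 agreeing genes, 2717 to 2838 of them higher, 2315 to 2619 called for E16.5 against E14.5 and 149 to 621 called for E18.5 against E16.5; in the last, the lowest values came without an E16.5 array. The agreeing genes numbered 2302 among genes above the median gene, 1130 with 3 or more probesets required, and 2169 with no overlap of arrays in any probeset. The higher genes numbered 1822, 895 and 1718 under these, and 1720 after quantile normalization and 921 after median centring. Over all genes the shares called without 1 array were 52.3% to 59.5% for the earlier and 4.36% to 14.4% for the later interval. With 3 or more probesets 861 and 173 genes were called for the earlier and the later interval, beside 57.9% and 12.9% of all genes. For the later interval 322 genes were called with the mean of all probesets, 347 with their median, 349 without a variance trend and 172 with a 2-fold minimum, and the share that rose was 43.9% in the analysis reported, 55.9%, 52.4%, 52.1% and 51.7% under these. The share of all genes called for the later interval was 9.62%, 9.86%, 9.59% and 5.11% under the same settings in turn. The pseudocount (1 or 64) moved none of the 4 counts by over 1.5 times. Of 48 named agreeing genes called in the later interval, 28 kept the call without each array in turn.

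Some named genes turned direction. After median centring the E16.5 minus E14.5 difference was -0.31 for Dsc1, -0.18 for Cdk4, -0.38 for Igf2, -0.057 for Meg3, -0.64 for Rps14, -0.38 for Krt1, -0.058 for Shh and -0.39 for Fbln5. Among named genes that did not pass the test for this interval as deposited, it also turned, to -0.37 for Lpl, -0.30 for Tyrp1, -0.25 for Arg2, -0.59 for Upk3b, -0.92 for Rpl37a, -0.42 for Hamp and Ibsp, -0.63 for Sox6, -0.14 for Krt2 and -0.56 for Dsg1a. Of these Tyrp1, Arg2, Upk3b, Ibsp and Sox6 turned after quantile normalization too. With the mean and the median of all probesets it was 2.49 and 3.45 for Trp63, and -1.41 for Lor with the mean. Without probesets that can match several transcripts it was -0.11 for Lor, and the E18.5 minus E16.5 difference was 0.060 for Prc1, -0.12 for Rps20 and 1.78 for Ctse. It was 0.037 for Smtnl2 when probesets were averaged or their median taken, and -0.085 for Rpl37a after quantile normalization. For Sox6 it ran from -0.33 to 0.65 when single arrays were left out. The cause was not tested, beyond the change of probeset that these settings make. Signals near background limit the folds of genes such as Lce1a1 and Ttr to lower bounds.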
